A study of Mus musculus with 57 samples.

Results

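The morula was compared with the 8-cell embryo in total RNA of mouse preimplantation embryos. The rule took every row of the deposited expression table (an annotated gene or a locus the authors assembled) that reached at least 1 FPKM in at least 2 of the 4 columns of these stages. It kept 12012 of 59119 rows. FPKM is a count of sequenced fragments scaled to the length of the transcript and the size of the library. The series holds 57 samples of oocytes and embryos, and each stage here has 4 labelled samples but 2 columns in the table, whose names hold a word for merging. Whether the samples labelled as additions entered these columns is not stated, so n was taken as 2 per stage. Per the labels, embryos of both stages were wild type with C57BL/6 given as the strain, came from oocytes fertilized in vitro with sperm of adult BDF1 males, and were pooled at 150 to 200 per sample. Each value is therefore an average over many embryos and over inner and outer cells, and fewer cells of a type cannot be told apart from less RNA per cell. Nothing in the labels says that the 2 columns of a stage came from separate batches of embryos. The p-values therefore measure only the spread between columns of the same stage, taken over all 8 stages fitted, which may be technical.

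Between these stages the embryo compacts: the blastomeres flatten on each other through E-cadherin junctions and acquire an apical domain facing outward. Cells that keep this domain become trophectoderm, the future placental epithelium, while cells enclosed inside hold YAP out of the nucleus through Hippo signalling and form the inner cell mass. The inner cell mass later divides into epiblast, which keeps pluripotency, and primitive endoderm. The transcripts inherited from the oocyte and those of the first wave of genome activation decline over the same period.

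Of the 12012 rows, limma called 3252 between the stages at an adjusted p under 0.05 (27.1%), 1413 of them higher in the morula (11.8%) and 1839 lower (15.3%). The fit covered 19692 rows over the 8 stages, among which it called 4111 (20.9%), 1653 higher (8.39%) and 2458 lower (12.5%). In none of the 3252 called rows did the columns of the stages overlap, but the same was true of 9062 of all 12012 rows. Differences are given below as log2 values, morula minus 8-cell, of FPKM plus 0.5, which understates the change of rows near or below 1 FPKM. Most called differences were moderate, with a median size of 0.82 among rows that rose and 0.93 among rows that fell, and 463 and 785 of them exceeded 1. The median over all 12012 rows was -0.01. Rows that entered through 1 stage alone had to differ in level: 679 rows reached 1 FPKM in both 8-cell columns only and 502 of these were called lower, while 421 did so in both morula columns only and 313 of these were called higher. Of the 10080 rows at 1 FPKM or more in all 4 columns, 1016 were higher and 1227 lower.

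**Figure D1:**
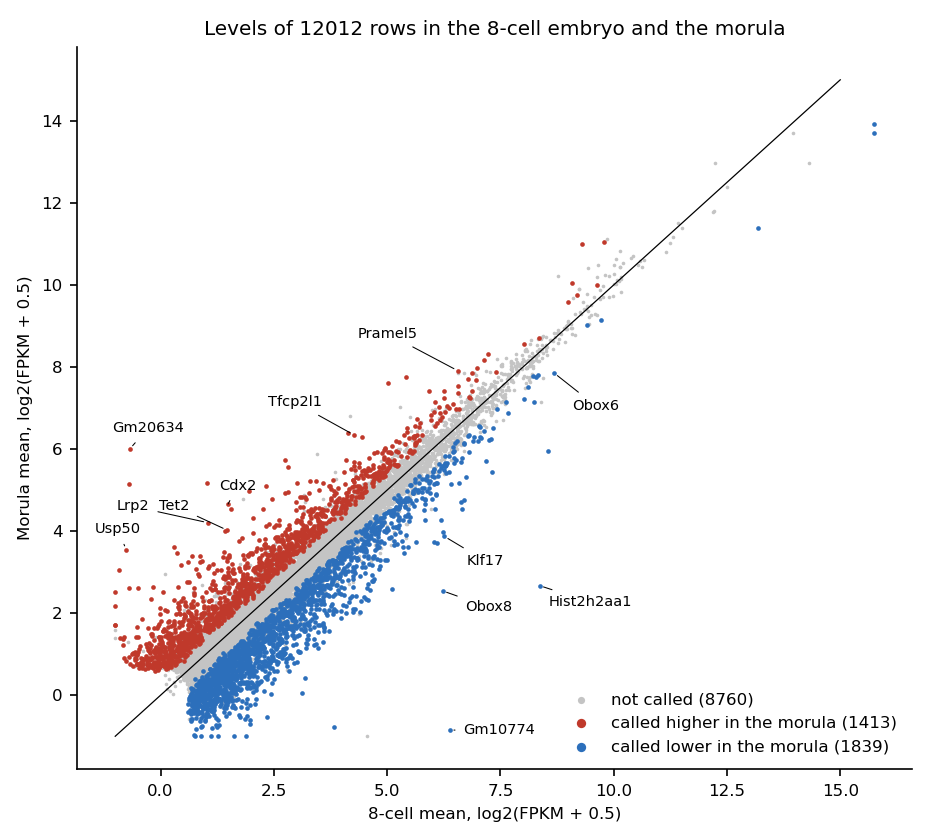
Mean FPKM of each of the 12012 rows in the 8-cell embryo (horizontal) and the morula (vertical), both as log2(FPKM + 0.5), n = 2 columns per stage, with called rows coloured by direction and selected genes labelled. Most rows lie along the diagonal, and the called rows, 1413 above and 1839 below it, spread away from it at all levels.

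The table holds no counts, and the depth behind its values is therefore unknown. The FPKM sums were 409615 and 556456 in the 8-cell columns and 367695 and 375405 in the morula columns. Small and ribosomal RNA made up 31.7% and 50.9% in the 8-cell columns and 22.3% and 24% in the morula columns. Protein-coding rows summed to 238871 and 233065 FPKM at the 8-cell stage and to 243172 and 242089 in the morula, so 8-cell replicate 2 stood apart in its small RNA and not in the protein-coding total. Correlations of log2 levels were 0.9821 within the 8-cell stage, 0.9899 within the morula, and 0.9571 to 0.9626 between them. Below, values are given for the 8-cell columns first and the morula columns second, with SE for the log2 difference. The count of called rows among the 12012 was 2063 without 8-cell replicate 1, 2286 without 8-cell replicate 2, 2130 without morula replicate 1 and 1998 without morula replicate 2. Of the genes named below as not called, a fit of the 4 columns alone called Actb, Ctnna1, mt-Nd1, Pou5f1 and Rlim higher and Grhl2, Plk1, Sox21 and Tet3 lower. Unless said otherwise the genes named as risen or fallen kept their call whichever 1 column was left out. The gene lists rest on general knowledge of the field, and their counts of calls stand beside the 27.1% of all rows compared. Shares near or under it and not given below were 33.3% for integrin and basement membrane genes and 22.2% for the p53 and mitochondrial genome lists. Others were 21.1% for protein folding, 20% for snoRNA hosts, 18.9% for translation initiation, 13.8% for histone modifiers and 10% for the citric acid cycle. Genes named beyond the 4 per list and the largest changes were chosen after their values were seen.

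Of 10 transcription factors of the trophectoderm, 5 rose and 2 fell, and the log2 rises of Cdx2 and Gata3 exceeded 2.5. Cdx2 (ENSMUSG00000029646.3, GRCm38 chromosome 5, 147300805 to 147307270), the homeobox factor that keeps trophectoderm identity, measured 1.89 and 2.72 FPKM at the 8-cell stage and 25.5 and 24 in the morula, 10.7 times higher by the means (log2 difference 3.19 ± 0.20 SE, limma's adjusted p = 6.08e-06). Gata3 (ENSMUSG00000015619.10, chromosome 2, 9857078 to 9890034), a zinc finger factor that acts beside Cdx2, was barely present before and went from 0.552 and 0.217 FPKM to 5.88 and 5.62 (2.85 ± 0.27, adjusted p = 4.67e-05). Elf3 (ENSMUSG00000003051.13, chromosome 1, 135253575 to 135258568), an epithelial ETS factor, went from 6.57 and 6.52 FPKM to 29.8 and 31.0 (2.13 ± 0.17, adjusted p = 1.43e-05). Both morula columns of these 3 genes lay above both 8-cell columns, as in all rows called higher. Eomes (ENSMUSG00000032446.14, chromosome 9, 118478212 to 118486132), the T-box factor of trophoblast stem cells, went from 0.957 and 0.683 FPKM to 3.91 and 3.68 (1.71 ± 0.14, adjusted p = 1.94e-05). Klf5, a Krüppel-like factor needed in early trophectoderm and inner cells, was already high and rose from 46.4 and 48.3 FPKM to 78.0 and 78.9 (0.72 ± 0.14, adjusted p = 0.00448). Klf5, which started highest of the 5, had the smallest log2 rise. In the neighbouring stages, whose comparisons with these share columns so that only levels are given, Cdx2 had a mean of 0.108 FPKM in the 4-cell embryo and 132 in the blastocyst, and Elf3 2.86 and 131.

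The stretches of genome just upstream of 3 of these genes are shown because they rose together and a reader may want to see what precedes their transcripts. They come from RefSeq's promoter windows for GRCm38.p6 (250 bases before to 50 after the RefSeq start), trimmed to the part upstream of every annotated exon, on the gene's own strand, 5′ to 3′. Gata3 was also chosen but is not shown, since no part of its window was left after this trimming. Capitals mark the octamer motif ATGCAAAT, bound by POU factors such as OCT4, and the TEAD motif GGAATG.
Cdx2, chr5:147307271-147307499, minus strand: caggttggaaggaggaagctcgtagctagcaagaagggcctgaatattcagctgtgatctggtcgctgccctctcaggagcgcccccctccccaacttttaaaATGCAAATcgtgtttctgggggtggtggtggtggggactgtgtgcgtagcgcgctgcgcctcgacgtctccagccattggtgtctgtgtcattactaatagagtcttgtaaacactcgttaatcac
Elf3, chr1:135258569-135258722, minus strand: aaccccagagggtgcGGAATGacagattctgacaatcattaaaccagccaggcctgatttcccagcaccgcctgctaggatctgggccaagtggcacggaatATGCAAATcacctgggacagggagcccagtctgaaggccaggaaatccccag
Eomes, chr9:118477939-118478188, plus strand: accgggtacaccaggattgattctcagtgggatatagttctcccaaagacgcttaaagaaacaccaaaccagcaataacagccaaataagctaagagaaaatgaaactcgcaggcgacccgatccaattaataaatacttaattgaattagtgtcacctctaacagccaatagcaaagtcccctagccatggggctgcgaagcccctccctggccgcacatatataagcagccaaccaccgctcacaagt
The Cdx2 stretch holds 1 octamer, 147 bases before the start, and the Elf3 stretch holds 1 octamer, 148 bases before the start, and 1 TEAD motif at 235 bases. The Eomes stretch holds no match to the 5 motifs searched on both strands, which were GGAATG for TEAD factors, AGATAA for GATA factors, GGGCGG for Sp and Klf factors, ATGCAAAT for POU factors and TATAAA for the TATA box, with overlaps between motifs allowed. Across the 20552 windows matched to rows by symbol, the octamer was present in 1.63%, in 1.34% of the 7617 windows of rows compared, in 2.04% of the 833 windows of rows that rose and in 1.19% of the 1175 windows of rows that fell. GGAATG was present in 14.1% of all windows, 11.4% of those of rows compared, 14% of those of risers and 10.9% of those of fallers. In the same order GGGCGG was found in 42.7%, 66.2%, 67.5% and 63.9%, AGATAA in 10.2%, 6.00%, 7.56% and 6.21%, and TATAAA in 13.2%, 6.34%, 6.84% and 6.64%. These are matches of letters, not measured binding.

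Other trophectoderm regulators went the other way or did not pass. Tead4, the TEAD factor that switches on Cdx2, measured 85.8 and 88.6 FPKM at the 8-cell stage and 64.0 and 56.2 in the morula (-0.54 ± 0.12, adjusted p = 0.00857), a fall that lost its call without 8-cell replicate 2 (-0.51, adjusted p = 0.054) and without morula replicate 2 (-0.44, adjusted p = 0.0882). Hand1, a factor of later trophoblast giant cells, fell from 29.5 and 27.0 FPKM to 18.5 and 15.0 (-0.74 ± 0.13, adjusted p = 0.00185), a call that a fit of the 4 columns alone did not make. Tfap2c, an AP-2 factor already abundant in the 8-cell embryo, measured 55.6 and 61.9 FPKM at the 8-cell stage and 47.1 and 50.3 in the morula and was not called, and neither were Grhl2 and Sox21, although Sox21 passed as lower with a pseudocount of 1, with the filter on the 4 columns and under scaling by the median of ratios. Of 21 genes on the list, 11 did not reach the level needed to enter.

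**Figure D2:**
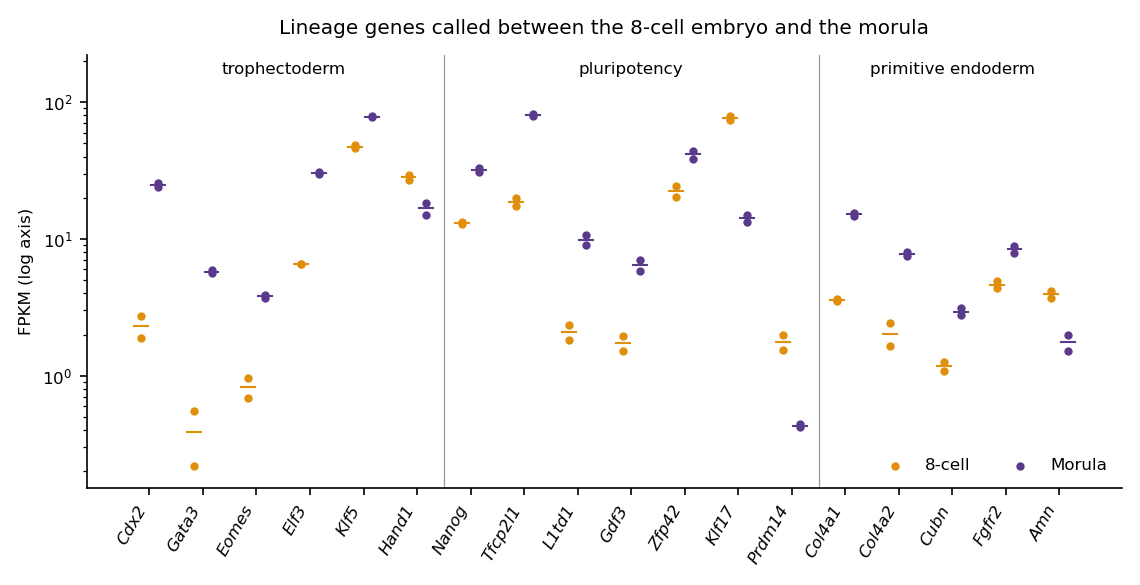
FPKM (log axis) of 18 called lineage genes in each of the 4 columns, orange for 8-cell and purple for morula, with a bar at each stage's mean, n = 2. The trophectoderm genes Cdx2, Gata3, Eomes and Elf3 and the collagens Col4a1 and Col4a2 sit higher in both morula columns, and Klf17, Hand1, Prdm14 and Amn sit lower.

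Of 23 pluripotency genes, 7 rose and 3 fell, with the largest differences in Klf17, Tfcp2l1 and L1td1. Klf17 (ENSMUSG00000048626.5, chromosome 4, 117757836 to 117765648), a Krüppel-like factor of the cleavage stages, fell from 79.1 and 73.5 FPKM to 15.0 and 13.3 (-2.39 ± 0.16, adjusted p = 8.27e-06). Its mean had been 257 FPKM in the 4-cell embryo and was 1.71 in the blastocyst. Tfcp2l1 (ENSMUSG00000026380.10, chromosome 1, 118627945 to 118685168), a factor of the naive pluripotency network, rose from 17.5 and 20.0 FPKM to 79.5 and 82.3 (2.08 ± 0.15, adjusted p = 8.60e-06). L1td1, an RNA-binding protein derived from a LINE-1 element, rose from 1.84 and 2.33 FPKM to 9.0 and 10.7 (2.00 ± 0.13, adjusted p = 7.35e-06). Gdf3, a TGF-beta family ligand, rose from 1.94 and 1.53 FPKM to 5.85 and 6.99 (1.63 ± 0.17, adjusted p = 7.58e-05). Nanog, the homeobox factor that marks the later epiblast, went from 13.3 and 13 FPKM to 33.1 and 30.6 (1.25 ± 0.15, adjusted p = 0.000176), and Zfp42, also known as Rex1, from 20.2 and 24.5 FPKM to 38.6 and 44.3 (0.88 ± 0.16, adjusted p = 0.00293). In every one of these risers, as in all 1413 rows called higher, both morula columns lay above both 8-cell columns. Prdm14, which represses differentiation genes, fell from 1.54 and 1.98 FPKM to 0.445 and 0.420 (-1.27 ± 0.16, adjusted p = 0.000263). Pou5f1, which encodes OCT4, measured 344 and 352 FPKM at the 8-cell stage and 428 and 431 in the morula and was not called (0.30 ± 0.15, adjusted p = 0.208). Sox2 did not reach the level needed to enter. Of the 10 calls in this list, 7 held whichever 1 column was left out.

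Genes of the primitive endoderm list were called in 9 of 12 cases, 7 higher and 2 lower, and 5 of these calls held whichever 1 column was left out. The basement membrane collagens rose as a pair. Col4a1 (ENSMUSG00000031502.11, chromosome 8, 11198423 to 11312826) went from 3.66 and 3.52 FPKM to 15.6 and 14.7 (1.93 ± 0.12, adjusted p = 5.63e-06) and Col4a2, the neighbouring gene that encodes its partner chain, from 2.42 and 1.65 FPKM to 7.97 and 7.51 (1.72 ± 0.19, adjusted p = 0.000103). Cubn, the endocytic receptor cubilin, rose from 1.25 and 1.09 FPKM to 2.76 and 3.12 (1.04 ± 0.14, adjusted p = 0.000476), while Amn, which encodes the membrane anchor of that receptor, fell from 4.19 and 3.67 FPKM to 1.99 and 1.51 (-0.98 ± 0.16, adjusted p = 0.00125), although not in a fit of the 4 columns alone. The genes of the receptor complex were thus split, that of the large subunit called higher and that of the anchor lower. Lrp2, a giant receptor that binds cubilin, is described with the largest changes below. The list's transcription factors Sox17, Sox7 and Foxa2 did not reach the level needed to enter. Gata4, another factor of this lineage, was called lower, with differences from -1.93 to -1.07 when 1 column was left out. Its call was lost without 8-cell replicate 1 and without morula replicate 2. Gata6 was called higher, by 0.33 to 0.38 with 1 column left out, a call lost whichever 1 column was left out. Pdgfra, an early primitive endoderm receptor, measured 1.83 and 1.96 FPKM at the 8-cell stage and 1.78 and 1.56 in the morula and was not called.

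The Hippo pathway keeps YAP in the cytoplasm of inner cells, and 6 of its 19 members rose while 2 fell. Amot (ENSMUSG00000041688.16, X chromosome, 145446425 to 145505181), the angiomotin that tethers YAP and activates LATS kinases at junctions, rose from 5.66 and 4.95 FPKM to 17.2 and 17.1 (1.61 ± 0.14, adjusted p = 2.90e-05). Amotl2, its paralog, rose from 6.47 and 6.46 FPKM to 14.7 and 13.8 (1.08 ± 0.13, adjusted p = 0.000176). Lats2, a kinase that phosphorylates YAP, went from 2.75 and 3.17 FPKM to 6.96 and 6.41 (1.05 ± 0.15, adjusted p = 0.00062), although its row shares exon bases with another that fell, as described below. Nf2, the upstream scaffold merlin, fell from 35.0 and 34.0 FPKM to 19 and 21.1 (-0.77 ± 0.15, adjusted p = 0.00341). The other faller was Tead4, described above with the trophectoderm genes and counted here too. Of the effectors, Yap1 measured 27.6 and 24.3 FPKM at the 8-cell stage and 28.4 and 26.2 in the morula and was not called, and neither were Wwtr1, Stk3, Stk4, Sav1 and Lats1. Of the 8 calls 4 held whichever 1 column was left out, and without 8-cell replicate 2 the list gave 3 higher and 1 lower.

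Of 19 polarity genes, 5 were higher and 1 lower, a share of 31.6% called beside 27.1% of all rows compared, with a median of -0.01. Prkci, the atypical protein kinase C of the apical PAR complex, went from 4.54 and 4.79 FPKM to 12.1 and 11.5 (1.25 ± 0.10, adjusted p = 2.25e-05), and Pard6b, its PAR partner, from 7.68 and 8.77 FPKM to 20.2 and 19.3 (1.22 ± 0.21, adjusted p = 0.00185). Cdc42, the small GTPase that activates this complex, went from 72.7 and 70.8 FPKM to 105 and 104 (0.54 ± 0.11, adjusted p = 0.00654). Ezr, the ezrin of the microvilli that cover the apical domain, rose from 2.80 and 3.30 FPKM to 11 and 9.17 (1.57 ± 0.16, adjusted p = 6.33e-05). The other scaffold Pard3 measured 3.73 and 3.51 FPKM at the 8-cell stage and 3.50 and 3.66 in the morula and was not called. Stk11, the polarity kinase LKB1, fell from 19.7 and 21.7 FPKM to 11.1 and 11 (-0.87 ± 0.13, adjusted p = 0.000795). The genes of the apical PAR kinase, its PAR6 partner and their GTPase were therefore all called higher, while Pard3 was not called.

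Among 26 genes of the actomyosin cortex, 10 rose and 1 fell, and 5 of the 11 calls held whichever 1 column was left out. Actg1, cytoplasmic gamma-actin, went from 141 and 139 FPKM to 281 and 294 (1.04 ± 0.19, adjusted p = 0.00292), and reads may be shared with pseudogene copies such as the row Actg-ps1, which also rose. Actn1, the crosslinker alpha-actinin, rose from 14.6 and 14.8 FPKM to 33.8 and 31.6 (1.13 ± 0.18, adjusted p = 0.00125). Tpm4, a tropomyosin, rose from 22.5 and 24.9 FPKM to 55.9 and 53.8 (1.19 ± 0.21, adjusted p = 0.00228) and Rock2, a kinase that activates myosin, from 5.5 and 5.82 FPKM to 11.4 and 12.2 (1.0 ± 0.20, adjusted p = 0.00511). These 4 changes were all near 1 on the log2 scale. Actb, beta-actin, measured 186 and 183 FPKM at the 8-cell stage and 258 and 263 in the morula and was not called. The member that fell was Vil1, the microvillar bundler villin, from 2.80 and 1.69 FPKM to 0.299 and 0.408 (-1.66 ± 0.19, adjusted p = 0.000133), which the fit of the 4 columns alone did not call.

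Desmosome and keratin genes, which mark an epithelium, were called higher in 4 of 5 cases. Krt18 (ENSMUSG00000023043.7, chromosome 15, 102028180 to 102032027), a type I keratin, went from 8.44 and 8.70 FPKM to 30.0 and 26.3 (1.66 ± 0.22, adjusted p = 0.000384). Pkp2, the desmosomal plaque protein plakophilin, rose from 1.29 and 1.01 FPKM to 3.78 and 4.15 (1.44 ± 0.14, adjusted p = 6.16e-05) and Dsp, desmoplakin, from 0.907 and 0.939 FPKM to 2.47 and 2.03 (0.95 ± 0.16, adjusted p = 0.00192). These levels were still small beside the blastocyst, where the means were 652 FPKM for Krt18 and 55.3 for Dsp. Krt8, the partner of Krt18, measured 10.1 and 10.7 FPKM at the 8-cell stage and 19.5 and 19.9 in the morula (0.89 ± 0.24, adjusted p = 0.0215), a call that was lost whichever 1 of the 4 columns was left out (adjusted p = 0.107 and 0.0737 without 8-cell replicates 1 and 2, 0.0878 and 0.103 without morula replicates 1 and 2).

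Adherens junction genes gave 5 risers and 2 fallers of 14, but only the fall of Limd1, a LIM protein of these junctions, from 3.77 and 3.21 FPKM to 0.650 and 0.854 (-1.67 ± 0.28, adjusted p = 0.00146), held whichever 1 column was left out. Cdh1, E-cadherin, measured 48.1 and 48.7 FPKM at the 8-cell stage and 72.4 and 68.1 in the morula (0.53 ± 0.16, adjusted p = 0.0364), and its call was lost whichever 1 of the 4 columns was left out (adjusted p = 0.143 and 0.121 without 8-cell replicates 1 and 2, 0.173 and 0.11 without morula replicates 1 and 2). Ctnna1, the alpha-catenin that links cadherin to actin, measured 53.4 and 52.8 FPKM at the 8-cell stage and 101 and 101 in the morula and was not called (0.92 ± 0.59, adjusted p = 0.342), with an SE that rests on the spread over all 8 stages. Of 16 tight junction genes 1 was higher and 1 lower, a smaller share than the 27.1% of all rows compared. Tjp3, the plaque protein ZO-3, rose from 0.640 and 0.714 FPKM to 1.59 and 1.86 (0.91 ± 0.13, adjusted p = 0.00068) and Cldn6, a claudin, fell from 12.7 and 14.3 FPKM to 3.40 and 3.53 (-1.82 ± 0.18, adjusted p = 5.39e-05). Cldn4, another claudin, measured 141 and 153 FPKM at the 8-cell stage and 175 and 167 in the morula and was not called.

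Ion pumps and water channels later fill the blastocyst cavity, and 3 of 11 rose while 3 fell, 5 of which calls held whichever 1 column was left out. Aqp3, a water and glycerol channel, went from 69.7 and 71.0 FPKM to 129 and 129 (0.87 ± 0.14, adjusted p = 0.00127), a call lost with a pseudocount of 0.1. The beta subunits of the sodium pump moved in opposite directions: Atp1b1 rose from 1.45 and 1.39 FPKM to 3.17 and 3.53 (1.0 ± 0.15, adjusted p = 0.00102) and Atp1b3 fell from 52.1 and 49.4 FPKM to 29.4 and 32.0 (-0.72 ± 0.11, adjusted p = 0.00077). Atp1b3 remained the more abundant of these subunits per length in the morula. Slc4a2, an anion exchanger, rose from 0.935 and 1.03 FPKM to 2.27 and 2.32 (0.92 ± 0.15, adjusted p = 0.0012), and Aqp11, an intracellular aquaporin, fell from 1.53 and 1.64 FPKM to 0.211 and 0.383 (-1.39 ± 0.13, adjusted p = 3.65e-05). Of 15 integrin and basement membrane genes 2 rose and 3 fell, and the one call that held whichever 1 column was left out was the rise of Nid1, the linker nidogen, from 25.7 and 24.8 FPKM to 48.7 and 47.3 (0.91 ± 0.16, adjusted p = 0.00235).

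In FGF signalling, the ligand and its receptors changed unequally, with 4 members higher and 6 lower of 20, and 6 of these calls held whichever 1 column was left out. Fgf4 (ENSMUSG00000050917.5, chromosome 7, 144847367 to 144865243), the ligand that drives primitive endoderm fate, fell from 10.7 and 11 FPKM to 3.52 and 4.11 (-1.40 ± 0.10, adjusted p = 1.08e-05). Fgfr4, a receptor, fell from 9.31 and 7.92 FPKM to 2.82 and 2.35 (-1.57 ± 0.18, adjusted p = 0.000145) and Fgfr2, another receptor, rose from 4.37 and 4.91 FPKM to 8.91 and 7.85 (0.79 ± 0.12, adjusted p = 0.000771). Reads of Fgfr2 could in part belong to Ctbp2, a gene with which it shares 314 exon bases on the same strand. Ctbp2 was also called higher, but not when any 1 of the 4 columns was left out (adjusted p = 0.137 and 0.171 without 8-cell replicates 1 and 2, 0.15 and 0.176 without morula replicates 1 and 2). Fgfr1 measured 3.8 and 3.32 FPKM at the 8-cell stage and 3.53 and 3.24 in the morula and was not called. Dusp4, an ERK phosphatase induced by the pathway, rose from 0.547 and 0.341 FPKM to 1.62 and 1.64 (1.18 ± 0.18, adjusted p = 0.000955). Other genes induced by the pathway did not all go with it. Spry4, a feedback inhibitor, fell, with differences from -1.96 to -1.67 when 1 column was left out. Spry2 and Etv5 were called higher, but each of these calls was lost when some 1 column was left out. Fgfr4 was thus the higher of Fgfr2 and Fgfr4 at the 8-cell stage, and Fgfr2 in the morula.

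Of 10 Notch genes, 2 rose and 3 fell, and 4 of these calls held whichever 1 column was left out. The fallers were all ligands. Jag1 went from 9.58 and 9.14 FPKM to 3.53 and 3.45 (-1.3 ± 0.22, adjusted p = 0.00191). Jag2 went from 9.15 and 9.40 FPKM to 5.58 and 5.03 (-0.75 ± 0.13, adjusted p = 0.00232) and Dll3, a ligand that acts within the cell, from 4.45 and 4.49 FPKM to 2.88 and 2.71 (-0.59 ± 0.11, adjusted p = 0.00255). Rbpj, the DNA-binding partner of the receptor, rose from 7.97 and 8.28 FPKM to 14.6 and 14.2 (0.79 ± 0.10, adjusted p = 0.000362). Of 16 Nodal and BMP genes 2 rose and 1 fell, below the background, and the call that held whichever 1 column was left out was that of Acvr2a, an activin receptor, from 4.14 and 3.8 FPKM to 7.05 and 7.49 (0.80 ± 0.12, adjusted p = 0.000916). The co-receptor gene Tdgf1 measured 72.0 and 69.6 FPKM at the 8-cell stage and 69.3 and 70.8 in the morula and was not called.

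Metabolic lists had calls in both directions. Preimplantation embryos move from pyruvate toward glucose as fuel over this period. Hk2 (ENSMUSG00000000628.10, chromosome 6, 82725025 to 82774454), a hexokinase that commits glucose to glycolysis, rose from 4.78 and 4.76 FPKM to 17.8 and 17.2 (1.77 ± 0.20, adjusted p = 0.000129), and Slc2a1, the glucose transporter GLUT1, from 1.18 and 1.03 FPKM to 4.40 and 3.92 (1.54 ± 0.15, adjusted p = 5.05e-05). Pfkm, the muscle-type phosphofructokinase, fell from 1.99 and 1.63 FPKM to 0.658 and 0.842 (-0.88 ± 0.14, adjusted p = 0.00124), as did Pdk1, a kinase that restrains pyruvate dehydrogenase, from 1.47 and 1.01 FPKM to 0.405 and 0.237 (-1.08 ± 0.18, adjusted p = 0.00138), both calls that a fit of the 4 columns alone did not make. Glucose genes as a list gave 3 higher and 4 lower of 20, 4 of which held whichever 1 column was left out, and citric acid cycle genes 1 and 1 of 20, with Pcx, pyruvate carboxylase, down from 1.99 and 2.02 FPKM to 0.541 and 0.632 (-1.21 ± 0.18, adjusted p = 0.00086). Slc2a1 and Hk2 were thus higher and Pfkm and Pdk1 lower, while 13 of the 20 glucose genes were not called. The share of the glucose list called was 35%, beside 27.1% of all rows compared.

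Of 26 sterol and fatty acid genes 6 rose and 2 fell, and 5 of these calls held whichever 1 column was left out. The desaturase genes Scd2 and Scd1 rose, Scd2 from 8.21 and 6.85 FPKM to 18.9 and 18.7 (1.27 ± 0.17, adjusted p = 0.000362) and Scd1 from 10.6 and 11.3 FPKM to 18.5 and 17.5 (0.69 ± 0.13, adjusted p = 0.00334). Acly, which makes cytosolic acetyl-CoA, went from 29.3 and 29.2 FPKM to 42.9 and 43.6 (0.55 ± 0.11, adjusted p = 0.00371), and Sqle, an early enzyme of the sterol branch, fell from 14 and 12.7 FPKM to 5.82 and 6.67 (-1.04 ± 0.11, adjusted p = 0.000107). The genes of fatty acid synthesis and desaturation named here were higher, and the sterol enzyme was lower. Of 10 amino acid transporters 2 rose and 2 fell, and the call that held whichever 1 column was left out was that of Slc6a9, a glycine transporter used by cleavage embryos, down from 5.09 and 4.39 FPKM to 1.07 and 0.857 (-1.84 ± 0.35, adjusted p = 0.00321). Of 9 iron genes 2 rose and 1 fell, 33.3% called beside 27.1% of all rows compared. Aco1, the iron-sensing regulator IRP1, rose from 2.35 and 2.63 FPKM to 6.30 and 6.75 (1.23 ± 0.19, adjusted p = 0.00102), and Steap3, an endosomal ferrireductase, from 13.7 and 13.4 FPKM to 22.0 and 22.7 (0.70 ± 0.11, adjusted p = 0.00128). Hmox1, heme oxygenase, fell from 9.04 and 7.88 FPKM to 3.96 and 3.48 (-1.09 ± 0.16, adjusted p = 0.000729).

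Oocyte and maternal genes were lower in 28 of 37 cases and higher in 1, with a median of -1.17 against -0.01 over all rows compared, and 22 of the 29 calls held whichever 1 column was left out. Btg4 (ENSMUSG00000032056.10, chromosome 9, 51060901 to 51119875), an adaptor that brings the deadenylase to maternal mRNA, fell from 15.0 and 12.1 FPKM to 3.54 and 3.78 (-1.75 ± 0.18, adjusted p = 7.43e-05). Oas1d, an oocyte member of the oligoadenylate synthetase family, fell from 6.03 and 5.31 FPKM to 1.61 and 1.57 (-1.56 ± 0.16, adjusted p = 6.15e-05), and Nobox, an oocyte homeobox factor, from 1.55 and 1.64 FPKM to 0.515 and 0.451 (-1.09 ± 0.12, adjusted p = 0.000146). The egg coat genes fell together, Zp2 from 11.8 and 10.2 FPKM to 4.89 and 5.55 (-1.01 ± 0.16, adjusted p = 0.00131) and Zp3 from 34.4 and 36.9 FPKM to 14.4 and 15.0 (-1.25 ± 0.18, adjusted p = 0.000713). So did the growth factor genes that oocytes secrete, Gdf9 from 28.1 and 23.5 FPKM to 9.54 and 10.6 (-1.31 ± 0.26, adjusted p = 0.00407) and Bmp15 from 11.2 and 10.7 FPKM to 4.11 and 4.94 (-1.19 ± 0.20, adjusted p = 0.00149). Genes of the subcortical maternal complex did not all move one way. Nlrp5 fell from 13 and 10.5 FPKM to 4.05 and 4.26 (-1.39 ± 0.25, adjusted p = 0.00274) and Tle6 from 8.05 and 8.70 FPKM to 3.19 and 3.23 (-1.26 ± 0.15, adjusted p = 0.000216). Padi6, which is needed for the lattices of the egg cytoplasm, fell from 32.5 and 29.9 FPKM to 15.6 and 16.1 (-0.95 ± 0.16, adjusted p = 0.00154). Ooep measured 2.61 and 2.84 FPKM at the 8-cell stage and 2.18 and 1.71 in the morula and was not called. Khdc3, also known as Filia and part of the same complex, was the exception of the list and rose from 49.5 and 50.6 FPKM to 101 and 109 (1.06 ± 0.13, adjusted p = 0.000198). In the blastocyst Khdc3 had a mean of 157 FPKM and Nlrp5 of 0.530. Decay of inherited RNA and lower synthesis cannot be told apart in these data.

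Genes of the 2-cell wave, first switched on at genome activation, were lower in 13 of 20 cases and higher in 1, with a median of -0.76 (Obox6, described below, is counted here too). Of these 14 calls 8 held whichever 1 column was left out, and 8 genes were called lower without morula replicate 2 and 9 without 8-cell replicate 1. Tdpoz4 (ENSMUSG00000060256.1, chromosome 3, 93796398 to 93797510), of a family with TRAF and POZ domains, fell from 70.2 and 59.1 FPKM to 14.2 and 11.4 (-2.30 ± 0.15, adjusted p = 6.99e-06), and Tdpoz5 from 19.9 and 15.5 FPKM to 4.95 and 4.41 (-1.81 ± 0.17, adjusted p = 5.30e-05). Zfp352, a zinc finger gene of that wave, went from 1.48 and 1.25 FPKM to 0.118 and 0.0562 (-1.67 ± 0.17, adjusted p = 6.02e-05), and Spz1, a leucine zipper factor, from 4.25 and 3.92 FPKM to 1.71 and 1.67 (-1.06 ± 0.11, adjusted p = 6.05e-05). The member that was called higher, Tdpoz2, measured 20.1 and 19.3 FPKM at the 8-cell stage and 31.8 and 30.2 in the morula (0.64 ± 0.18, adjusted p = 0.0282) and lost its call whichever 1 of the 4 columns was left out (adjusted p = 0.0988 and 0.118 without 8-cell replicates 1 and 2, 0.136 and 0.0979 without morula replicates 1 and 2). The Tdpoz genes are near-identical copies, so the authors' counting could have split their reads. Of 39 genes on the list, 19 did not reach the level needed to enter, among them the Zscan4 genes and Duxf3.

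All 5 Obox genes that entered fell, and 4 of these calls held whichever 1 column was left out. Obox genes are homeobox genes of the oocyte and early embryo that include similar copies on chromosome 7. Obox8 (ENSMUSG00000099216.1, chromosome 7, 14331436 to 14333557) had the steepest fall, from 79.0 and 69.7 FPKM to 5.88 and 4.78 (-3.69 ± 0.24, adjusted p = 6.99e-06), and Obox6, the most abundant member, went from 424 and 399 FPKM to 236 and 226 (-0.83 ± 0.10, adjusted p = 0.000257). Obox5 fell from 4.65 and 4.23 FPKM to 1.18 and 1.36 (-1.48 ± 0.20, adjusted p = 0.000379) and Obox1 from 3.28 and 2.71 FPKM to 1.48 and 1.28 (-0.90 ± 0.17, adjusted p = 0.00328). By the means, the morula level of Obox6 was 0.561 of its 8-cell level and that of Obox8 was 0.0717. The Pramel and Oog genes, a repeated family, moved in both directions, 2 higher and 4 lower of 11, and all 6 calls held whichever 1 column was left out. Pramel5 (ENSMUSG00000036749.15, chromosome 4, 144270633 to 144280488) rose from 94.3 and 92.8 FPKM to 241 and 239 (1.36 ± 0.12, adjusted p = 3.61e-05) and Pramel4 from 79.2 and 73.4 FPKM to 147 and 155 (0.98 ± 0.14, adjusted p = 0.000701). Oog1 fell from 10.8 and 8.96 FPKM to 2.91 and 2.43 (-1.71 ± 0.19, adjusted p = 0.000109) and Oog3 from 9.72 and 8.36 FPKM to 1.99 and 2.17 (-1.88 ± 0.27, adjusted p = 0.00069). Pramel6 and Pramel7 were high in all 4 columns, at 238 and 225 FPKM at the 8-cell stage and 241 and 246 in the morula for Pramel7, and were not called.

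**Figure D3:**
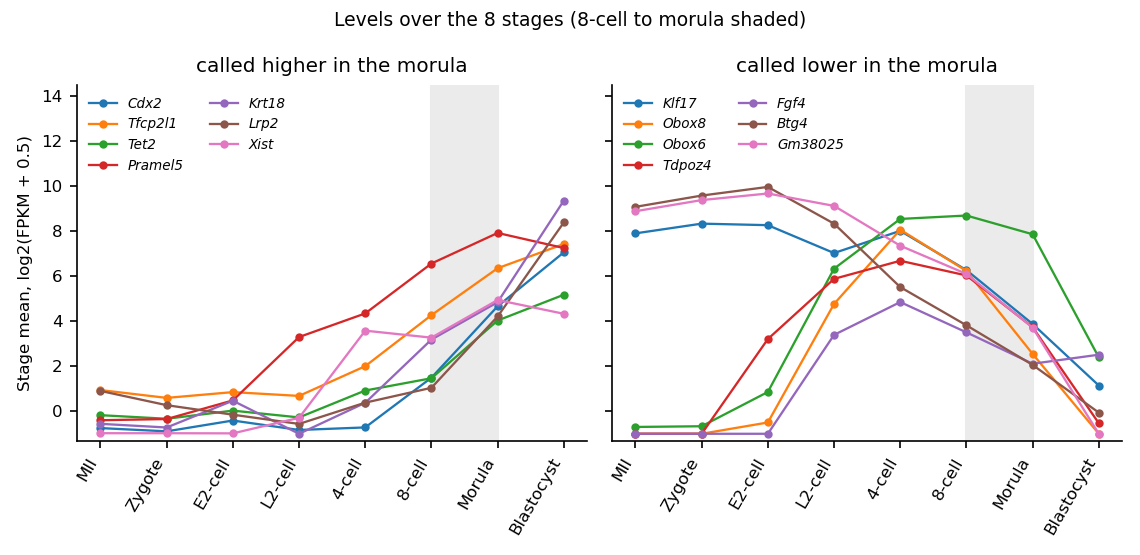
Stage means as log2(FPKM + 0.5) over the 8 stages from the MII oocyte to the blastocyst, n = 2 columns per stage, for 7 genes that rose (left) and 7 that fell (right) between the 8-cell embryo and the morula, with these stages shaded. Cdx2, Krt18 and Lrp2 climb on to the blastocyst, while Pramel5 and Xist are highest in the morula; Obox8, Tdpoz4 and Gm38025 fall over several stages to near 0.

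Cell cycle genes fell more than they rose, 9 lower and 1 higher of 32, and 6 of the 10 calls held whichever 1 column was left out. Cdc25b, a phosphatase that starts mitosis, went from 14.1 and 11.9 FPKM to 4.81 and 3.16 (-1.61 ± 0.24, adjusted p = 0.000746). E2f1, a factor of S phase entry, went from 12.1 and 10.6 FPKM to 5.18 and 5.01 (-1.08 ± 0.18, adjusted p = 0.00145). Aurkb, the kinase of chromosome segregation, went from 14.7 and 14.3 FPKM to 8.22 and 7.86 (-0.81 ± 0.14, adjusted p = 0.00217) and Ccnd1, cyclin D1, from 7.39 and 6.44 FPKM to 3.89 and 3.63 (-0.80 ± 0.15, adjusted p = 0.00339). The mitotic kinase genes Cdk1 and Plk1 were not called, at 82.7 and 78.7 FPKM at the 8-cell stage and 91.2 and 89.0 in the morula for Cdk1. The share of cell cycle genes called was 31.25%, beside 27.1% of all rows compared. Lysosomal genes were lower in 10 of 24 cases and higher in 2, and 7 of these 12 calls held whichever 1 column was left out. Several cathepsins fell. Ctsl (ENSMUSG00000021477.9, chromosome 13, 64359337 to 64370890) went from 146 and 146 FPKM to 54.2 and 49.1 (-1.49 ± 0.13, adjusted p = 3.56e-05). Ctsb went from 59.4 and 53.6 FPKM to 20.0 and 17.8 (-1.56 ± 0.21, adjusted p = 0.000418) and Ctsa from 202 and 203 FPKM to 120.1 and 114 (-0.79 ± 0.11, adjusted p = 0.000675). Neu1, a sialidase, fell from 6.47 and 6.11 FPKM to 2.77 and 2.76 (-1.06 ± 0.14, adjusted p = 0.000428). Ctsd, another cathepsin of similar abundance, measured 146 and 155 FPKM at the 8-cell stage and 174 and 177 in the morula and was not called. Of 19 genes of protein folding in the endoplasmic reticulum 3 rose and 1 fell, with Herpud1, a part of the degradation machinery, up from 0.130 and 0.266 FPKM to 1.80 and 1.24 (1.53 ± 0.19, adjusted p = 0.000247) and Dnajc3, an inhibitor of the kinase PERK, down from 11 and 10.1 FPKM to 5.68 and 5.67 (-0.84 ± 0.13, adjusted p = 0.001). Of 18 p53 and stress genes 2 rose and 2 fell, and the call that held whichever 1 column was left out was the fall of the cell death gene Bbc3 from 4.35 and 4.72 FPKM to 2.17 and 1.93 (-0.98 ± 0.14, adjusted p = 0.000591).

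Of 13 DNA methylation genes 2 rose and 1 fell, a share near the 27.1% of all rows compared, and the call for Tet2 was the one that held whichever 1 column was left out. Tet2 (ENSMUSG00000040943.12, chromosome 3, 133463679 to 133545139), a dioxygenase that oxidizes 5-methylcytosine, rose from 2.57 and 1.95 FPKM to 14.4 and 17.2 (2.57 ± 0.16, adjusted p = 6.99e-06). Tet1 measured 8.12 and 7.96 FPKM at the 8-cell stage and 6.94 and 7.16 in the morula and was not called. Tet3 measured 2.93 and 2.80 FPKM at the 8-cell stage and 1.38 and 1.28 in the morula and was not called either. Of 29 histone modifiers 2 rose and 2 fell, and 3 of the 4 calls held whichever 1 column was left out. Jarid2, a partner of Polycomb repressive complex 2, rose from 45.9 and 50.9 FPKM to 81.7 and 78.2 (0.72 ± 0.14, adjusted p = 0.00455), and the genes of the H3K9 methyltransferase pair GLP and G9a fell, Ehmt1 from 11.1 and 10.5 FPKM to 5.84 and 4.65 (-0.98 ± 0.18, adjusted p = 0.00288) and Ehmt2 from 45.9 and 47.7 FPKM to 28.9 and 30.8 (-0.64 ± 0.10, adjusted p = 0.001). Both genes of that enzyme pair were thus called lower.

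Xist (ENSMUSG00000086503.4, X chromosome, 103460366 to 103483254), the noncoding RNA that coats and silences an X chromosome in female cells, rose from 8.21 and 10.0 FPKM to 30.9 and 29.3 (1.68 ± 0.17, adjusted p = 7.00e-05). Its mean had been 11.4 FPKM in the 4-cell embryo and was 19.5 in the blastocyst, so the morula was the highest of these stages. The small RNA row Gm27927 lies within Xist, shares all of its 126 bases with it, and also rose. The labels do not give the sex of the pooled embryos. The 280 protein-coding X-linked rows had a median of 0.01, beside -0.02 for the autosomes, with 36 higher and 48 lower. Rlim, an X-linked activator of Xist, measured 37.3 and 35.4 FPKM at the 8-cell stage and 57.0 and 57.2 in the morula (0.64 ± 0.25, adjusted p = 0.094), which passed in a fit of the 4 columns alone but not over the 8 stages. Of 15 imprinted genes 1 rose and 6 fell, among them Phlda2, a growth restraint of the placenta, from 8.83 and 9.18 FPKM to 2.30 and 2.26 (-1.77 ± 0.19, adjusted p = 0.000108) and Usp29, a paternally expressed gene, from 1.59 and 1.45 FPKM to 0.488 and 0.498 (-1.02 ± 0.10, adjusted p = 6.66e-05). Of these 7 calls 3 held whichever 1 column was left out, with 0 higher and 4 lower each time. The labels give no parent of origin for any read.

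In lists of basic cell machinery the number of calls depended on the fit. Of 82 cytosolic ribosomal protein genes limma called 0 at an adjusted p under 0.05 and 1 at an unadjusted p under 0.05, and a fit of the 4 columns alone called 6 higher and 2 lower. Rps29 measured 1093 and 1204 FPKM at the 8-cell stage and 1146 and 1123 in the morula. Of 30 ribosome assembly genes 2 fell, of 35 proteasome subunits 3 rose and 1 fell, of 84 respiratory chain subunits 5 rose and 3 fell, and of 65 core histone genes 2 rose and 3 fell. The shares called in these lists ran from 0% to 11.4%, beside the 27.1% of all rows compared. A fit of the 4 columns alone called more: 22 proteasome subunits higher and 2 lower, 4 ribosome assembly genes higher and 9 lower, 12 respiratory chain subunits higher and 5 lower, and 6 core histone genes higher and 0 lower. Of the calls given first, 1 of the 4 in the proteasome, 0 of the 2 in ribosome assembly, 2 of the 8 in the respiratory chain and 2 of the 5 in the core histones held whichever 1 column was left out. Of 53 translation initiation factors 6 rose and 4 fell, among them Eif4e3, a cap-binding protein, down from 3.44 and 3.59 FPKM to 1.24 and 0.955 (-1.33 ± 0.16, adjusted p = 0.000178) and Eif2d, a noncanonical initiation factor, up from 9.67 and 9.63 FPKM to 16.2 and 16 (0.71 ± 0.12, adjusted p = 0.00215). Of these 10 calls 3 held whichever 1 column was left out, with 1 to 3 risers and 2 to 3 fallers left each time, and the 4 columns alone gave 13 higher and 10 lower.

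**Figure D4:**
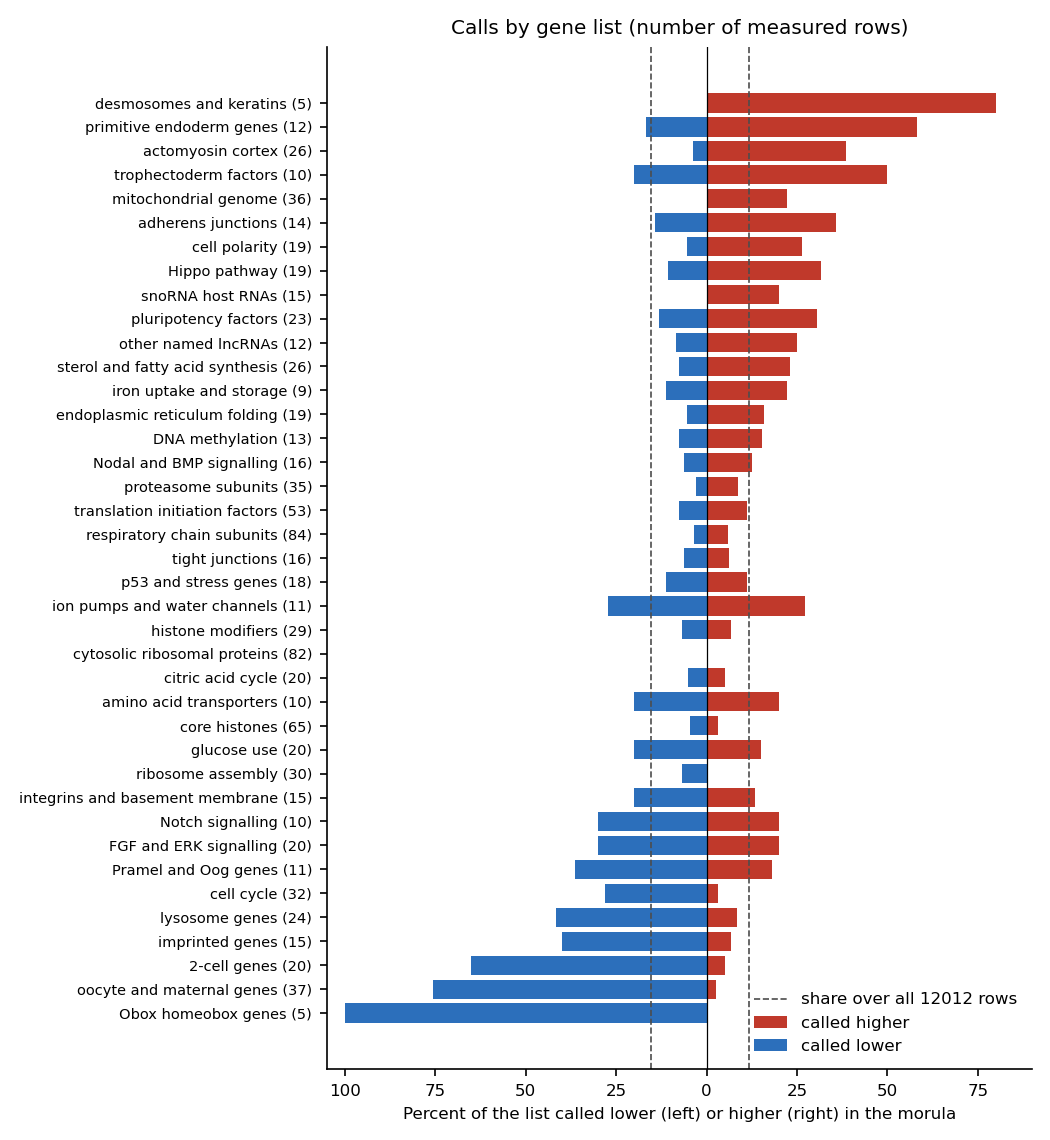
Percent of each gene list's rows called higher (right) and lower (left) in the morula, with dashed lines at the shares of all 12012 rows, 11.8% higher and 15.3% lower, and the number of rows per list beside its name. Oocyte, 2-cell and Obox genes reach furthest to the left, desmosome and primitive endoderm genes furthest to the right, and ribosomal protein genes show no bar.

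Most markers of other cell types were near 0. Of 14 cumulus and granulosa markers 6 were listed at 0 in all 4 columns, and their summed level was 37.0 and 37.0 FPKM at the 8-cell stage and 12.1 and 13.4 in the morula, nearly all from Amhr2, a hormone receptor, which fell from 36.8 and 36.9 FPKM to 11.7 and 13 (-1.54 ± 0.11, adjusted p = 8.60e-06). Cyp19a1, Fshr and Inha, which define those cells, did not reach 1 FPKM in 2 columns. Of 8 sperm and testis markers 6 were listed at 0 and the sums stayed between 0.252 and 1.24 FPKM, and of 10 fibroblast and blood markers 6 were listed at 0. Their sums were 3.38 and 1.97 FPKM at the 8-cell stage and 0.734 and 0.697 in the morula. Most of that was Hba-a1, an alpha-globin gene with a near-identical copy, at 3.27 and 1.95 FPKM at the 8-cell stage and 0.713 and 0.560 in the morula. It was called lower (-1.42 ± 0.31, adjusted p = 0.00711), but not without 8-cell replicate 1 (adjusted p = 0.0719) or without morula replicate 2 (adjusted p = 0.0547), nor in a fit of the 4 columns alone.

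Among the largest rises of protein-coding genes was that of Apoa1 (ENSMUSG00000032083.8, chromosome 9, 46228580 to 46230466), an apolipoprotein also made by visceral endoderm, from 0.887 and 0.563 FPKM to 11.5 and 11.9 (3.33 ± 0.15, adjusted p = 2.07e-06). Lrp2 (ENSMUSG00000027070.14, chromosome 2, 69424340 to 69586065), the endocytic receptor megalin, rose from 1.62 and 1.49 FPKM to 17.6 and 18.3 (3.17 ± 0.18, adjusted p = 5.40e-06) and had a mean of 332 FPKM in the blastocyst. Ptges, which makes prostaglandin E2, rose from 0.706 and 0.850 FPKM to 10.4 and 10.7 (3.11 ± 0.25, adjusted p = 1.93e-05). Apoa1, Lrp2 and Ptges were each below 2 FPKM in both 8-cell columns and above 10 in both morula columns. Below them came Akr1b8, an aldo-keto reductase, from 6.29 and 6.70 FPKM to 46.2 and 46.7 (2.75 ± 0.35, adjusted p = 0.000302), and Zfpm1, the GATA cofactor FOG1, from 0.675 and 1.06 FPKM to 8.66 and 8.38 (2.74 ± 0.26, adjusted p = 4.53e-05). Nppb, a natriuretic peptide, rose from 4.35 and 2.90 FPKM to 19.6 and 19.6 (2.30 ± 0.22, adjusted p = 5.29e-05). Among abundant genes, Sumo2, a ubiquitin-like modifier, rose from 119.6 and 115 FPKM to 235 and 227 (0.98 ± 0.19, adjusted p = 0.00421).

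The largest falls of protein-coding genes included Exoc3l2, a relative of the exocyst, from 34.8 and 33.4 FPKM to 6.45 and 4.64 (-2.53 ± 0.15, adjusted p = 5.49e-06), and Omt2a, an oocyte transcript, from 10.8 and 12.1 FPKM to 1.97 and 1.93 (-2.28 ± 0.31, adjusted p = 0.000427). Nupr1, a small stress-response chromatin protein, fell from 6.05 and 8.41 FPKM to 1.13 and 1.34 (-2.14 ± 0.16, adjusted p = 1.13e-05). Tubb5, a beta-tubulin gene, fell from 107 and 92.3 FPKM to 24 and 21.5 (-2.10 ± 0.15, adjusted p = 9.70e-06) and Tubb4b, another, from 304 and 297 FPKM to 137 and 143 (-1.1 ± 0.18, adjusted p = 0.00131). The cytokine signalling kinase gene Jak2 fell from 25.4 and 24.7 FPKM to 6.45 and 7.67 (-1.76 ± 0.18, adjusted p = 7.58e-05). Socs3, which encodes a feedback inhibitor of that signalling, fell from 169 and 146 FPKM to 45.4 and 41.0 (-1.85 ± 0.14, adjusted p = 1.23e-05). Khdc1b, a KH domain gene of the early embryo, went from 112 and 94.8 FPKM to 26.8 and 26.2 (-1.94 ± 0.13, adjusted p = 7.40e-06). Among abundant genes, Pdxk, pyridoxal kinase, went from 279.6 and 275 FPKM to 187 and 176 (-0.61 ± 0.11, adjusted p = 0.00287) and Map1lc3a, an autophagosome protein, from 265 and 250.3 FPKM to 154 and 144 (-0.79 ± 0.12, adjusted p = 0.000724).

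lncRNAs and loci assembled by the authors were called more often than protein-coding genes. These shares include rows that entered through 1 stage alone, which had to differ in level, and the classes were not compared without them. Of 9465 protein-coding rows 1072 rose and 1477 fell (26.9% called), of 337 annotated long noncoding RNAs (lncRNAs) 47 rose and 70 fell (34.7%), and of 507 XLOC loci, assembled by the authors and without a position in the table, 111 rose and 157 fell (52.9%). Of 1196 pseudogenes 84 rose and 98 fell (15.2%), and of 407 small or ribosomal RNA rows 52 rose and 20 fell (17.7%). XLOC_036413 went from 1.1 and 0.957 FPKM to 8.53 and 9.48 (2.64 ± 0.19, adjusted p = 1.11e-05) and XLOC_016889 from 78.9 and 69.8 FPKM to 16.1 and 14.2 (-2.26 ± 0.15, adjusted p = 6.99e-06). Eprn (ENSMUSG00000113346.2, chromosome 13, 73344665 to 73347384), a lncRNA, rose from 8.57 and 8.91 FPKM to 27.0 and 27.0 (1.57 ± 0.11, adjusted p = 9.05e-06). C86187, also a lncRNA, fell from 14.1 and 13.1 FPKM to 4.15 and 3.39 (-1.73 ± 0.18, adjusted p = 8.87e-05). B020004C17Rik fell from 10.0 and 7.10 FPKM to 0.924 and 0.752 (-2.74 ± 0.19, adjusted p = 8.45e-06). The snoRNA host RNAs rose in 3 of 15 cases, 2 of which held whichever 1 column was left out, Snhg1 from 36.3 and 36.2 FPKM to 61.9 and 61.5 (0.76 ± 0.15, adjusted p = 0.0044) and Snhg14 from 0.465 and 0.483 FPKM to 1.72 and 1.55 (1.13 ± 0.12, adjusted p = 9.76e-05).

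Rows of the annotation's class TEC, transcripts that still await experimental evidence, were called often, with 47 of 94 rows higher and 17 lower. Of the 47 that rose, 38 lie inside a protein-coding gene of the same set on the same strand, and 16 of these 38 rows lie in a host gene that rose. Of the 17 that fell 1 lies inside such a gene, and some of the TEC rows that were not called do too. Some of the 16 rows share a host, as in Zfp280d, Enah and Herc4, so they are not independent of each other. Reads of an unspliced host transcript and of the row inside it cannot be told apart in this table.

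Some of the largest differences belong to rows that share exon bases. Among the 12012 rows, 271 pairs share exon bases on 1 strand, which involves 475 rows, and 7 of these pairs were called in opposite directions. Of the 20 called rows with a difference over 3 on the log2 scale, 8 are in such a pair and 5 in a pair called in opposite directions. Gm20634, a lncRNA on chromosome 3 (96245554 to 96248509), went from 0.107 and 0.144 FPKM to 61.3 and 66.2 (6.68 ± 1.11, adjusted p = 0.00154), while the histone gene Hist2h2aa1 (96245497 to 96246082), which shares 529 bases with it, 90.3% of the shorter, went from 376 and 282 FPKM to 11.7 and 0.0243 (-7.01 ± 1.03, adjusted p = 0.000736). The near-identical Hist2h2aa2 measured 413 and 309 FPKM at the 8-cell stage and 369 and 370.0 in the morula and was not called. Usp50, a gene of the ubiquitin-specific protease family on chromosome 2 (126709096 to 126783470), went from 0.0389 and 0.145 FPKM to 10.9 and 11.5 (4.31 ± 0.18, adjusted p = 1.94e-06). The pseudogene Gm10774 (126709354 to 126709557), all of whose 204 bases lie in Usp50 exons, went from 80.5 and 85.3 FPKM to 0.0541 and 0.0561 (-7.23 ± 0.87, adjusted p = 0.000206). In each of these pairs 1 row fell steeply from both 8-cell columns while the row that overlaps it rose from near 0. Usp50 had a mean of 12.2 FPKM in the 4-cell embryo and Gm10774 of 0.0437. In this pair the 4-cell levels were thus near those of the morula and unlike those of the 8-cell embryo. The other such pairs were Lats2 with Gm49361 (2955 shared bases), the lncRNA Tug1 with the small RNA row Gm27517 (236), Gm49384 with Gm49383 (144), and Ppan with each of the small RNA rows Gm23008 and Gm24067. Gm49361 went from 3.19 and 3.15 FPKM to 0 and 0 (-2.88 ± 0.51, adjusted p = 0.00236). Gm27517 went from 4.88 and 22.4 FPKM to 0.130 and 0.0439 (-4.25 ± 0.49, adjusted p = 0.000161) and Tug1 from 4.55 and 3.49 FPKM to 8.71 and 9.27 (1.08 ± 0.14, adjusted p = 0.000417). Gm49384, the row of its pair that rose, lost its call whichever 1 column was left out (adjusted p = 0.106 and 0.0979 without 8-cell replicates 1 and 2, 0.151 and 0.0671 without morula replicates 1 and 2). The calls of Ppan, Gm23008 and Gm24067 were each lost when some 1 column was left out. A fit of the 4 columns alone called neither Hist2h2aa1 nor Gm27517. How reads were assigned between such rows was not tested, and the changes of these rows are uncertain. Without the rows that share exon bases, 3152 of 11537 were called, 1358 higher and 1794 lower.

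**Figure D5:**
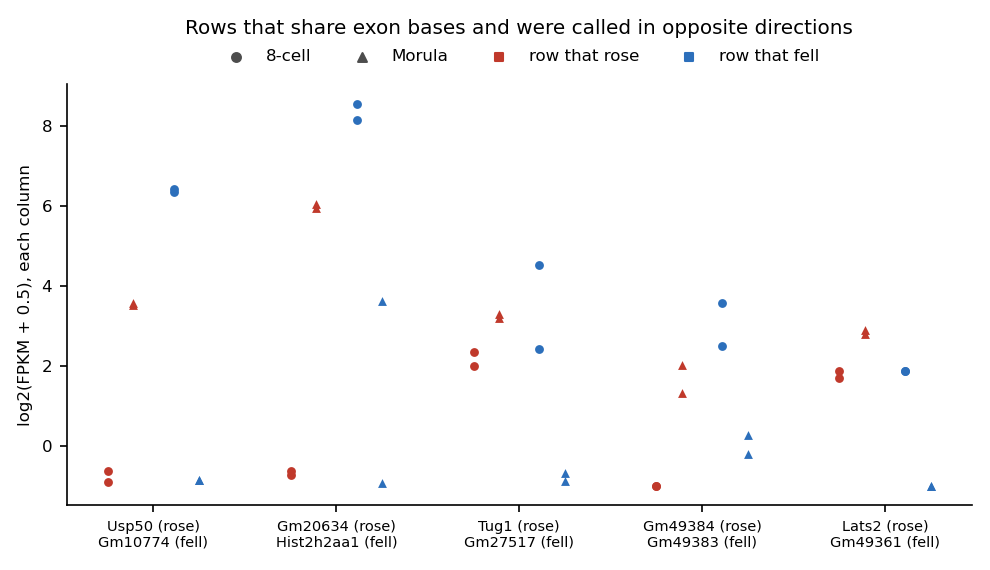
log2(FPKM + 0.5) of each column for 5 pairs of rows that share exon bases and were called in opposite directions, circles for 8-cell and triangles for morula, red for the row that rose and blue for the row that fell. In each pair the red row lies higher in the morula and the blue row higher in the 8-cell embryo, with Gm10774 and Hist2h2aa1 dropping furthest.

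Called noncoding rows also share sequence with each other across the genome, so that several calls can rest on the same reads. Transcripts of the 363 called lncRNA, TEC and pseudogene rows were compared, and rows were linked where they shared at least 300 stretches of 50 bases. Copies that were not called were not compared, so a group does not show how all copies changed. The largest group held 12 rows on 8 chromosomes, all lower, with differences from -2.62 to -1.55. Gm38025 was its most abundant row, from 71.5 and 64.1 FPKM to 12.5 and 12.7 (-2.38 ± 0.19, adjusted p = 1.56e-05), and Gm43694 went from 24.3 and 22.8 FPKM to 4.23 and 4.80 (-2.26 ± 0.16, adjusted p = 9.70e-06). Means of its members in the early 2-cell embryo had been 57.8 to 810 FPKM and were 0 to 0.393 in the blastocyst, so the fall was also present over the earlier stages. The next group held 11 rows on 4 chromosomes, all lower, from -2.17 to -1.17. A group of 6 Gapdh-like pseudogenes fell by less, from -0.59 to -0.47, and a group of 5 pseudogenes on chromosome 6 fell, from -1.56 to -0.54. The group of Gm12715, Gm8399 and Actg-ps1 rose, from 0.77 to 1.04, although Gm8399 lost its call without 8-cell replicate 1 or morula replicate 2. Rows of a group are not independent of each other.

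The most abundant rows of the 8-cell columns were small RNAs, and the 7SL RNA rows were highest in the column with the largest small RNA share. Rn7s1 and Rn7s2, near-identical genes of 7SL RNA, the scaffold of the signal recognition particle, were the highest rows of both 8-cell columns. Rn7s2 went from 40384 and 69019 FPKM to 12562 and 14249.8 (-1.98 ± 0.40, adjusted p = 0.00495), and no row of the 3 named here was called without the filter on low values or in a fit of the 4 columns alone. Rn7s1 went from 41165 and 68761 FPKM to 14587 and 16604 (-1.77 ± 0.44, adjusted p = 0.014) and Rn7s6 from 5919.9 and 12664 FPKM to 2532 and 2851 (-1.69 ± 0.41, adjusted p = 0.0139). All 3 were highest in 8-cell replicate 2, and both morula columns lay below both 8-cell columns. The calls of Rn7s1 and Rn7s6 were lost without 8-cell replicate 2 (adjusted p = 0.0898 and 0.113), without morula replicate 1 (0.0943 and 0.0856) and without morula replicate 2 (0.067 and 0.0617). Gm47299, a row of 80 bases that shares 77 of them with Rn7s2, measured 0.0100 and 40927 FPKM at the 8-cell stage and 7156 and 8792 in the morula and was not called, and its 8-cell columns were far apart. Rn7sk, the RNA that holds the elongation factor P-TEFb inactive, measured 14552 and 17237 FPKM at the 8-cell stage and 13261 and 13371 in the morula and was not called. Gm26377, a small RNA row on chromosome 9, rose from 634 and 619.8 FPKM to 2017 and 2077 (1.71 ± 0.21, adjusted p = 0.000263). The part of library making in the small RNA levels was not tested.

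Of 36 mitochondrial genome rows 8 were called higher, and all 8 were transfer RNA rows. Of these calls 2 held whichever 1 column was left out, with 2 to 4 rows called each time, while a fit of the 4 columns alone called 21 higher. mt-Tn, the tRNA for asparagine, went from 4.65 and 5.43 FPKM to 28.5 and 25.7 (2.32 ± 0.41, adjusted p = 0.00223), and mt-Tg, that for glycine, from 47.8 and 36.3 FPKM to 238 and 195 (2.36 ± 0.48, adjusted p = 0.00518), a call lost with a pseudocount of 0.1. Their means in the 4-cell embryo and the blastocyst were 33.1 and 5.84 FPKM for mt-Tn and 253 and 32.2 for mt-Tg, so that the levels went up and down over the stages. Of the summed FPKM, mitochondrial RNA made up 4.23% and 2.97% in the 8-cell columns and 6.96% and 7.18% in the morula columns, and the messenger RNA row mt-Nd1 measured 1054 and 1001 FPKM at the 8-cell stage and 1423 and 1429 in the morula and was not called. The share moves with these rows, and its part in the result was not tested.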

How the data were processed

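Total RNA of mouse oocytes and embryos was depleted of ribosomal RNA and sequenced as paired 150-base reads, per the labels' protocols, with a stranded total RNA kit or, for small amounts, a low-input one. The submitters' processing notes name cutadapt 1.18, HISAT2 2.1.0, StringTie 1.3.4d, Cufflinks, Cuffdiff 2.2.1 and the build GRCm38, without their roles. The kit of each library and the strand setting of the counting are not given there or in the labels. The authors deposited FPKM values per gene or assembled locus in the table used here, with 2 columns per stage. It has 43 columns of per-sample values, of which 16 were used and 27 were not.

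Values were taken as log2(FPKM + 0.5). limma 3.58.1 in R 4.3.3 (lmFit, then eBayes with a trend) was fitted without a replicate block to the 16 columns of the 8 stages, so that all stages share an estimate of the spread, on the 19692 rows with at least 1 FPKM in 2 columns. Two-sided p-values were adjusted over all of them by the Benjamini-Hochberg procedure, a call needed an adjusted p under 0.05, and every adjusted p in the text is of this kind. The fit was tested on simulated data. Python 3.11.15 with NumPy 2.4.6, pandas 2.3.3 and Matplotlib 3.10.9 made the summaries and plots. Positions, classes and exon overlaps came from GENCODE M21 (GRCm38), which held 54409 of the 54446 Ensembl rows, and promoter windows from RefSeq (GRCm38.p6). Replicate numbers were not taken as pairs, since deviations of equal-numbered columns had a correlation of 0.0509.

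The members and gene lists were chosen with earlier results of these data known. Named genes are up to 4 per list (called ones first, by adjusted p, then by level), the 15 largest rises and falls above 5 FPKM, rows listed at 0 in 1 stage, the 10 most abundant called protein-coding genes each way, and up to 3 assembled loci, lncRNAs and pseudogenes each way. Not every one is printed, and others were named after their values were seen. Alternatives were pseudocounts of 0.1 and 1, no filter, a filter on the 4 columns, scaling by the median of ratios or to an equal protein-coding sum, a fit of the 4 columns alone, a replicate block and leaving out each column. Leaving out rows that share exon bases was added after the data were seen.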

Additional observations from a re-analysis of the deposited data

How the results depend on the processing

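Of the 12012 rows, 1394 were called in every alternative but the added one. Leaving out 1 column moved the counts most: the rows called among all tested ranged from 2472 to 2993, those higher from 965 to 1065, those lower from 1495 to 1928, and those called among the 12012 from 1998 to 2286. Each such fit leaves a stage with 1 column, which is assumed to vary like the other stages. The other alternatives chosen at the start gave between 3556 and 4304 called rows of all tested, against 4111, and between 2786 and 3556 of the 12012, against 3252, and the added one gave 3152. Similar totals do not mean the same rows. The fit of the 4 columns alone called 3554 of the 12012, but only 2273 of the 3252 kept their call and direction in it. With a replicate block, 3963 of all tested rows were called, 1586 higher and 2377 lower, and 3140 of the 12012. The replicate numbers share only a number, so no lost call under the block is read as a weaker effect. In no alternative was a called row called the other way. Gm47299, not called here, ranged from -2.37 without 8-cell replicate 1 to 13.92 without 8-cell replicate 2. Of 196 called rows among the 211 chosen by the naming rule, 131 were called in every alternative but the added one, and between 41 and 45 lost their call when 1 column was left out. The largest shift of the median difference of all rows by a scaling was -0.03. Without counts, depth cannot be used to judge rows near 1 FPKM, where the pseudocount sets the size of the difference. Whether the columns are separate embryo pools, and in part the same ones as the added samples, was not tested.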
